A study of Mus musculus with 2 samples.

Results

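The clustered protocadherins are cell surface proteins encoded by the Pcdha, Pcdhb and Pcdhg gene clusters, which lie one after another on mouse chromosome 18. Their transcripts were measured at 8.5 days post coitum (dpc) in RNA of whole mouse embryos, with 1 array for embryos whose whole chromosome 18 pair came from the mother (matUPD18, maternal uniparental disomy) and 1 array for embryos whose pair came from the father (patUPD18). All probe sets were taken whose gene symbols in the platform annotation all began with Pcdha, Pcdhb or Pcdhg followed by a letter or number. This gave 35 of the 45101 probe sets on the array, 6 for Pcdha, 28 for Pcdhb and 1 for Pcdhg, which together stand for 37 of the 19324 gene symbols in the annotation, symbols of shared probe sets included. The strain background, the number of embryos in each RNA and the crosses that gave the disomies are not stated in the labels. Both RNAs were amplified before labelling.

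In each Pcdha and Pcdhg gene, a variable exon encodes the extracellular part and is spliced to constant exons that the whole cluster shares, whereas Pcdhb genes lack the shared exons. A neuron switches on a few of the variable promoters, largely at random and separately on its maternal and paternal chromosomes, and the resulting set of proteins lets its branches recognise each other by homophilic binding. The choice depends on DNA methylation at the promoters and on loops that the insulator protein CTCF and the cohesin ring form with distant enhancers. The families are best known from the developing and adult nervous system. The comparison asks whether these genes read differently when both copies of chromosome 18 come from 1 parent.

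The deposited values are MAS5 signals, a linear measure of probe set brightness, scaled to a 2% trimmed mean of 500.003 for matUPD18 and 500.004 for patUPD18. A probe set was called measurable when its signal reached the 60th percentile of its array, 190.1 for matUPD18 or 184.9 for patUPD18, on at least 1 array. The 40th percentiles, 84.2 and 82.5, served as a floor, to which lower signals were raised where a fold change is said to use the floor. One array per genotype allowed no test, and the spread between embryos is unknown. As a check of the labels, Impact, the paternally expressed imprinted gene of chromosome 18, had signals of 328.4 in matUPD18 and 2466 in patUPD18 by 1 probe set, while its 2 other probe sets gave 268.2 against 205.3 and 97.3 against 52.5. The 18 bacterial and phage hybridisation control probe sets were all lower in matUPD18, with a median log2 ratio of -0.56. Scaling the arrays to these controls would raise every log2 ratio of matUPD18 over patUPD18 by 0.56, so that a ratio between -0.56 and 0 would change sign. Pairs of signals below are given in the order matUPD18, then patUPD18.

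None of the 35 clustered protocadherin probe sets was measurable on either array, whereas 43.2% of all 45037 probe sets other than array controls were. Signals ran from 3.41 to 116.7 in matUPD18, with a median of 39.7, and from 3.0 to 123.5 in patUPD18, with a median of 31.8. The highest of them belonged to Pcdhb2 in patUPD18, the one member to reach the median signal of an array (125.4 for matUPD18 and 122.0 for patUPD18). The middle member stood at percentile 24.7 of the matUPD18 array and percentile 22.03 of the patUPD18 array. Of the 35 probe sets, 29 (82.9%) were below the floor on both arrays, against 35% of all probe sets other than controls. A low signal does not show that a transcript was absent, since probe sets differ in brightness for the same amount of RNA. In RNA from whole embryos, fewer expressing cells and less RNA per cell cannot be told apart.

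**Figure D1:**
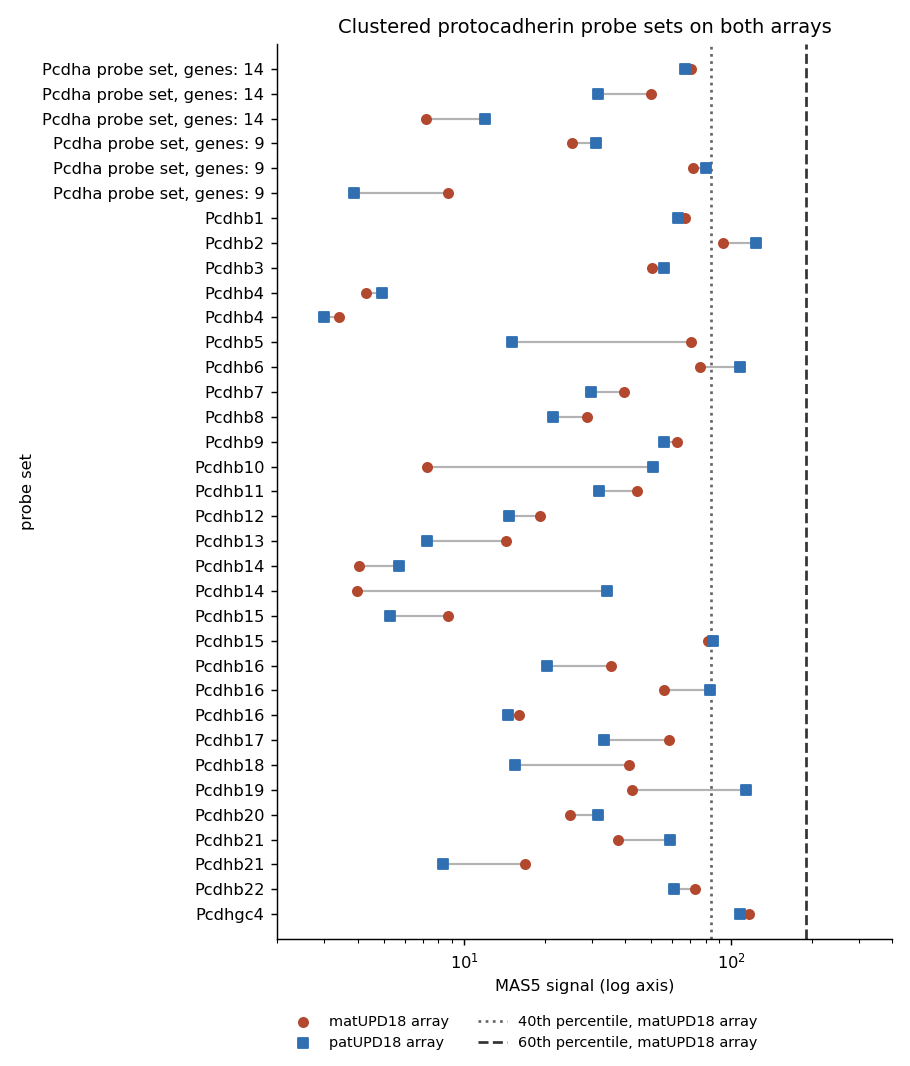
MAS5 signal (log axis) of each of the 35 clustered protocadherin probe sets, 1 per row, on the matUPD18 array (circles) and the patUPD18 array (squares); a Pcdha row gives the number of genes annotated to it. The dotted and dashed lines mark the 40th (84.2) and 60th (190.1) percentiles of the matUPD18 array, and every symbol lies to the left of the dashed line.

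The array covers the clusters unevenly. In the RefSeq gene table (assembly GRCm38.p6), chromosome 18 holds 14 Pcdha, 22 Pcdhb and 22 Pcdhg genes. All 22 Pcdhb genes had at least 1 probe set of their own. All 14 Pcdha genes were annotated, but none alone, since each Pcdha probe set is shared by 9 or by 14 of them. Of the Pcdhg genes, Pcdhgc4 had an annotated probe set, and the others were not analysed here. In all, 37 of the 58 genes were annotated to a probe set and 23 had their own.

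The Pcdha family could be read at the level of the cluster only. The 3 probe sets annotated to all 14 genes had signals of 70.6 and 67.1, of 50.2 and 31.8, and of 7.18 and 11.9. All of these were below the floor, and the direction was not shared, with 2 probe sets higher in matUPD18 and 1 higher in patUPD18. The other 3 Pcdha probe sets are annotated to the same 9 genes, among them the C-type genes Pcdhac1 and Pcdhac2, whose promoters lie nearest to the constant exons. Their signals were 71.5 and 80.1, 25.4 and 31.2, and 8.71 and 3.88. These too were below the floor, with 1 higher in matUPD18 and 2 higher in patUPD18. Over the 6 Pcdha probe sets the median log2 ratio without the floor was -0.05, and it turned to 0.52 when the arrays were scaled to the hybridisation controls.

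The Pcdhb genes, each with a single coding exon for a whole protein, gave the only gene-by-gene view of a cluster. Of their 28 probe sets, 23 were below the floor on both arrays. The other 5 were the probe sets of Pcdhb2, Pcdhb6 and Pcdhb19 and 1 each of Pcdhb15 and Pcdhb16. Pcdhb2, with 93.1 and 123.5, was the only Pcdhb probe set above the floor on both arrays. Pcdhb6 had signals of 76.3 and 107.8, and Pcdhb19 of 42.5 and 113.8, the widest gap of the 5. The brighter Pcdhb15 probe set gave 81.6 and 85.4, and the brightest Pcdhb16 probe set 55.7 and 83.4. All 5 read higher in patUPD18, a direction largely fixed by the choice, since 4 of them passed the floor on that array only, and 3 of them read higher in matUPD18 when the arrays were scaled to the hybridisation controls. With the floor applied the largest difference among all members was 1.35-fold, for Pcdhb19.

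The signals of the remaining Pcdhb probe sets ran from 72.8 down to 3.0. Pcdhb22 (72.8 and 60.8), Pcdhb1 (66.8 and 62.9), Pcdhb9 (62.8 and 55.7) and Pcdhb3 (50.4 and 56.1) had nearly even signals. Pcdhb17 (58.5 and 33.4), Pcdhb11 (44.5 and 31.9), Pcdhb7 (39.7 and 29.8) and Pcdhb8 (28.9 and 21.5) were each dimmer in patUPD18 by less than 2-fold. Pcdhb20, at 24.9 and 31.6, was dimmer in matUPD18. Pcdhb12 gave 19.2 and 14.7, and Pcdhb13 gave 14.4 and 7.26. At the bottom lay both probe sets of Pcdhb4, with 4.32 and 4.93 for one and 3.41 and 3.0 for the other. Over all 28 Pcdhb probe sets the median log2 ratio without the floor was 0.15.

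The Pcdhg cluster was represented by Pcdhgc4, one of its C-type genes. Its probe set gave 116.7 and 107.3, above the floor but below the measurable limit on both arrays. The log2 ratio was 0.12. Pcdhgc4 and Pcdhb2 were the only members above the floor on both arrays, and they leaned in opposite directions under the deposited scaling.

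Ratios of such dim signals are given without the floor as a description only. Of the 35 probe sets, 20 (57.1%) were higher in matUPD18 and 15 were higher in patUPD18; scaled to the hybridisation controls these were 29 and 6. Among the 25587 probe sets under the measurable limit on both arrays, 50.7% were higher in matUPD18, and 76% with that scaling. A difference of 2-fold or more was read for 4 members in the matUPD18 direction and 3 in the patUPD18 direction, where 15.6% and 14.3% of all probe sets under the limit passed. Together they made up 20% of the members, against 30% of all probe sets under the limit, so the folds of the protocadherins did not stand above this background. The median log2 ratio of the 35 was 0.12, beside 0.01 for all probe sets under the limit, and the standard deviations were 1.02 and 1.21.

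The widest single ratios each had at least 1 signal under the floor. Toward patUPD18, they were 1 of the Pcdhb14 probe sets (3.98 and 34.2), Pcdhb10 (7.26 and 51.1) and Pcdhb19 (42.5 and 113.8). Toward matUPD18, they were Pcdhb5 (70.9 and 15.1), Pcdhb18 (41.5 and 15.5), the dimmer Pcdhb21 probe set (16.9 and 8.38) and the Pcdha probe set that gave 8.71 and 3.88. The patUPD18 signal of Pcdhb19 was the only one of these above the floor. With the floor no member differed by 2-fold, and of the measurable probe sets 3.61% were at least that far higher in matUPD18 and 1.94% in patUPD18. A 2-fold difference over the floor would have needed a signal of 164.9 in matUPD18 or 168.3 in patUPD18, which no member reached. Differences of parental origin among signals this low were not detectable with these arrays.

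**Figure D2:**
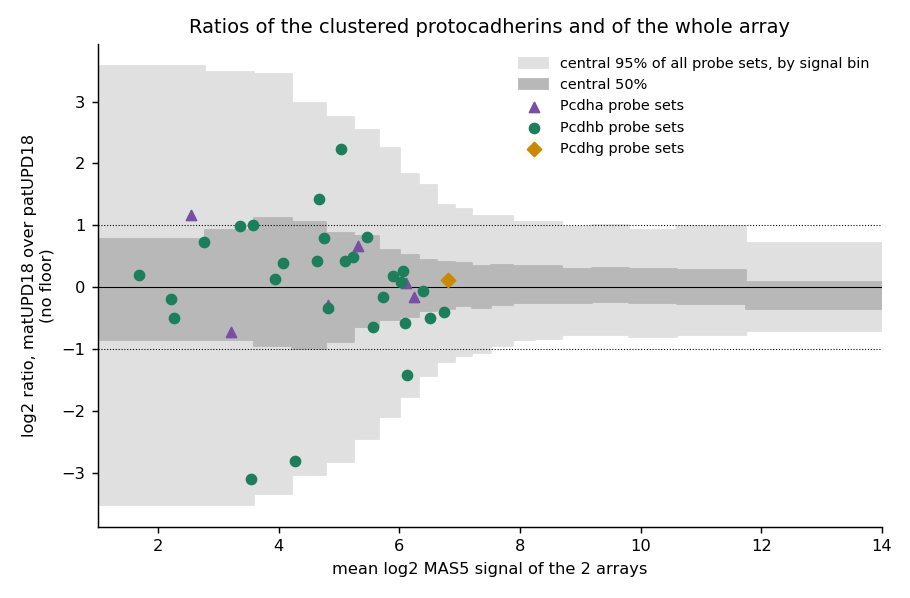
Log2 ratio of matUPD18 over patUPD18 without the floor (vertical axis) against the mean log2 MAS5 signal of both arrays (horizontal axis) for the 35 clustered protocadherin probe sets. Light and dark bands hold the central 95% and 50% of all probe sets in 20 bins of equal number by signal; all 35 members lie inside the 95% band of their bin and 24 inside the 50% band.

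Where a gene had several probe sets, they mostly disagreed in direction under the deposited scaling. Of 5 such Pcdhb genes, 4 had probe sets that pointed in opposite directions. The share of such genes over the whole array was not computed. Scaled to the hybridisation controls, the probe sets of Pcdhb4 and of Pcdhb15 pointed the same way. Those of Pcdhb14 then pointed opposite ways, with log2 ratios of 0.06 and -2.54, and those of Pcdhb16 and Pcdhb21 stayed opposed. The 3 probe sets of Pcdhb16 gave 55.7 and 83.4, 35.3 and 20.5, and 16.0 and 14.6. The brighter Pcdhb21 probe set gave 37.8 and 59.0, against 16.9 and 8.38 for the dimmer one. The Pcdhb15 pair gave 81.6 and 85.4, and 8.69 and 5.27. Both Pcdhb14 probe sets were higher in patUPD18, though the second, at 4.05 and 5.73, by far less than the first. Over the whole array, the log2 ratios without the floor of probe sets for 1 gene had a pooled SD of 1.2 where both signals of each lay under the limit, and the floored ratios of measurable ones had a pooled SD of 0.44. Pcdhb genes are close copies of each other, so a probe set may also read genes other than the one it is named for.

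Most of the other genes in this stretch of chromosome 18 were measurable, and some were as dim as the clusters. The 10 nearest genes with a probe set before Pcdha1, the 2 between Pcdhb22 and Pcdhga1 and the 10 after Pcdhgc5 were taken in RefSeq order, each by its brightest probe set. Of these 22 genes, 14 were measurable, as were 57.6% of the 18193 genes that had a probe set of their own. None of the 14 was 2-fold apart. Over all measurable genes, 2.7% passed that threshold in the matUPD18 direction and 1.78% in the patUPD18 direction. Just before Pcdha1, Zmat2, a spliceosome component gene, had signals of 5954 and 6723, and the histidyl-tRNA synthetase genes Hars and Hars2 had 4868 and 6778, and 427.5 and 371.0. Between Pcdhb22 and Pcdhga1, Taf7, a subunit gene of the general transcription factor TFIID, had 213.3 and 149.3, and the mitochondrial carrier gene Slc25a2, not measurable, had 141.0 and 52.7.

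After the last Pcdhg gene, Diaph1, which encodes an actin-nucleating formin, had signals of 1470 and 1743. Its 2 dimmer probe sets were also higher in patUPD18, with log2 ratios of -0.55 and -1.39. Hdac3, a histone deacetylase gene, had 1230 and 1214. Farther along, the protocadherin genes Pcdh1 and Pcdh12, which are outside the clusters, had 49.9 and 60.5, and 188.4 and 222.0, so that only Pcdh12 was measurable. A longer list of 21 genes near the clusters held 17 measurable ones, with a median log2 ratio of 0.02 beside -0.04 for all measurable genes. In it 1 gene passed 2-fold by its brightest probe set, Pura, a nucleic acid binding protein gene, at 396.0 and 127.7. The next Pura probe set, at 283.9 and 148.8, was 1.91-fold apart. Another, not measurable, pointed the opposite way at 134.6 and 144.6.

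**Figure D3:**
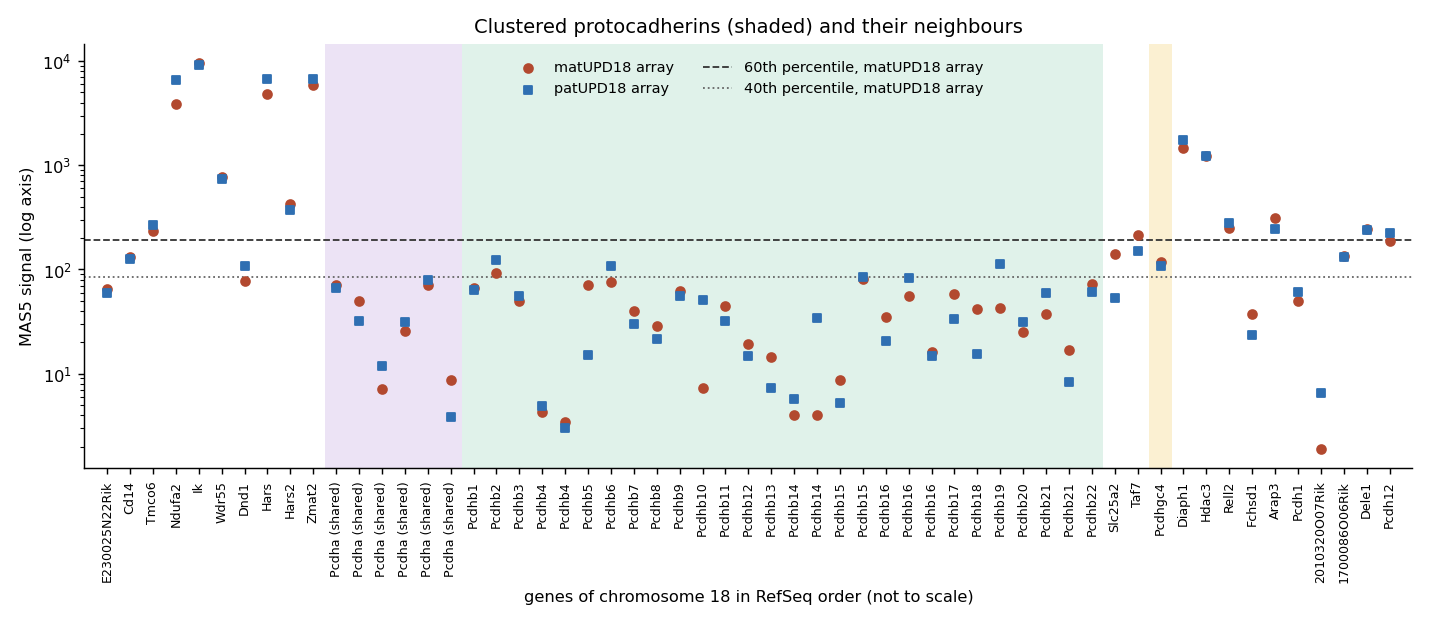
MAS5 signal (log axis) on the matUPD18 array (circles) and the patUPD18 array (squares) for the clustered protocadherin probe sets (shaded by cluster) and the 22 nearest other genes of chromosome 18, in RefSeq gene order and not to scale. The shaded clusters lie below the dashed 60th percentile line (190.1), while Ik, Zmat2 and Hars before them and Diaph1 and Hdac3 after them lie well above it.

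Protocadherins outside the clusters covered a wider range of signals. These genes have no array of variable exons, and several are known from segmenting mesoderm or from brain regions. Of 11 listed, 4 were measurable by their brightest probe set and none of the 4 was 2-fold apart; the median of their log2 ratios was 0.10. Pcdh8, the paraxial protocadherin of the presomitic mesoderm, had signals of 2663 and 2743, though its other probe set gave 1098 and 525.2. Pcdh18 had 1235 and 1017, and Pcdh19 had 649.5 and 546.9. Over all their probe sets, 6 of 30 (20%) were measurable, against 0 of 35 for the clusters. Olfactory receptors, a large family read mainly in the nose, had 1 measurable probe set of 44 (2.27%), and 47.7% of theirs were below the floor on both arrays.

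**Figure D4:**
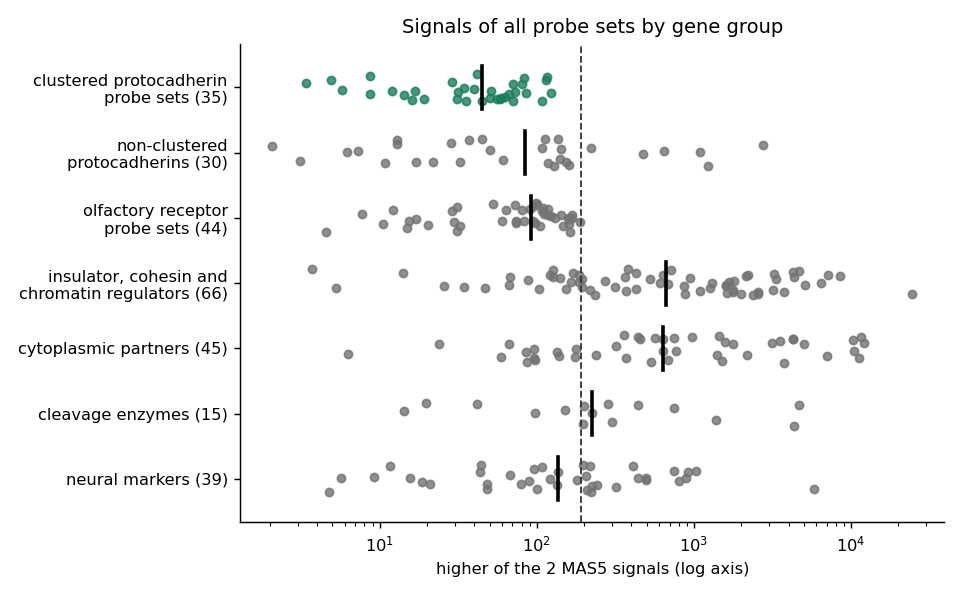
Higher of both MAS5 signals (log axis) for every probe set of each gene group, 1 point per probe set, with the number of probe sets in parentheses, a black bar at the median and a dashed line at the 60th percentile of the matUPD18 array (190.1). The clustered protocadherins have a median of 44.5 and none beyond the line, and the insulator, cohesin and chromatin regulators a median of 661.2 with 47 of 66 beyond it.

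Most genes for the machinery known to act on the clusters were measurable. Of 22 insulator, cohesin and chromatin regulator genes with a probe set, 21 were measurable by their brightest probe set. None of these was 2-fold apart by that probe set, and their median log2 ratio was 0.08. Nipbl, at 1600 and 1112, had other measurable probe sets past 2-fold toward matUPD18, at 937.6 and 443.3 and at 272.9 and 135.5. A further one, at 569.5 and 688.5, pointed the opposite way. Ctcf, the insulator gene, had signals of 4321 and 2263, but its other probe set gave 3151 and 3315. Rad21, a cohesin subunit gene, had 5086 and 2938, with log2 ratios of 0.18 and -0.09 by its other probe sets. Dnmt3b, the de novo DNA methyltransferase gene, had 7089 and 6232, and Smchd1, which encodes a chromatin repressor, had 4642 and 3234. In the other direction, the corepressor gene Trim28 had 16378 and 24592, and the methyltransferase gene Dnmt3a had 790.3 and 1101, but the log2 ratios of its other 4 probe sets ran from -0.68 to 0.79.

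Partners of the cytoplasmic tails and the enzymes that cut these proteins were also mostly measurable. Of 17 genes for cytoplasmic partners and actin regulators, 15 were measurable by their brightest probe set. Of these, 3 passed 2-fold toward matUPD18 and none toward patUPD18, with a median log2 ratio of 0.02. Over all genes with a probe set, the background for each list here, 57.6% were measurable. Of those measurable genes, 2.7% passed 2-fold toward matUPD18 and 1.78% toward patUPD18. Pdcd10, whose product binds protocadherin tails, had signals of 2187 and 795.7, and its next probe set a log2 ratio of 0.41. Ret, a receptor tyrosine kinase gene, had 440.9 and 163.6, while its dimmer probe set, not measurable, gave 143.8 and 177.1. Wasf2, a gene of the WAVE complex of actin regulators, had 4269 and 2028, but its other probe set, at 150.1 and 238.1, pointed the opposite way. Among the measurable genes the furthest toward patUPD18 were Brk1, another WAVE complex gene (7327 and 11536), and Axin1 (1202 and 1781). All 6 cleavage enzyme genes with a probe set were measurable and less than 2-fold apart, with a median log2 ratio of 0.09. Of these, Adam10, a main sheddase gene, had 4305 and 3465, and the gamma-secretase subunit gene Psenen had 2546 and 4652.

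Markers of the neural tissue in which clustered protocadherins are best known were read in both samples. Of 17 neural progenitor and early neuron markers with a probe set, 14 were measurable by their brightest probe set. By that probe set, 1 passed 2-fold toward matUPD18 and none toward patUPD18. Of the 14, 9 were higher in patUPD18 and 5 in matUPD18. Their median log2 ratio of -0.25 turned to 0.32 when the arrays were scaled to the hybridisation controls, and to 0.13 with the measurable limit at the 75th percentile. The progenitor genes Sox2 and Sox1 had signals of 5833 and 5337, and of 885.1 and 811.0. Among genes of differentiating neurons, Tubb3 (78.8 and 71.9), Map2 (133.7 and 93.7) and Elavl3 (149.6 and 180.4) were not measurable. By their brightest probe sets, Neurog2 (649.1 and 745.1), Elavl4 (226.0 and 317.0) and Isl1 (476.4 and 492.8) passed the limit on both arrays. The other Isl1 probe set, at 492.2 and 343.4, pointed the opposite way. Dcx (134.5 and 195.7) and the neuronal transcription factor genes Neurog1 (121.3 and 209.3), Neurod1 (133.6 and 206.7) and Nhlh1 (152.8 and 220.2) passed the limit in patUPD18 only. Stmn2 (239.9 and 83.1), the 1 marker counted past 2-fold, passed the limit in matUPD18 only. Its other probe set, not measurable, gave 119.7 and 121.8. The next Dcx probe set gave 106.4 and 218.1, past 2-fold toward patUPD18. Of 10 heart and somite markers, 8 were measurable and none of these was 2-fold apart, among them the cardiac troponin gene Tnnt2 at 6777 and 7159.

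The samples also differed in markers of other cell types. By their brightest probe set, the 13 visceral endoderm and yolk sac markers were all higher in matUPD18, 12 of them past 2-fold. Their summed signal was 35842 in matUPD18 and 5298 in patUPD18. The next Hnf4a probe set, measurable at 164.7 and 194.9, pointed the opposite way. So did a dim Afp probe set, not measurable, at 93.4 and 106.8. The 8 primitive red cell markers were all higher in patUPD18, 5 of them past 2-fold, with summed signals of 45973 and 70317. Scaled to the hybridisation controls, 1 of the 8, Hbb-y, was higher in matUPD18. That scaling moved the median log2 ratio of the 8 from -1.28 to -0.72, which is under 2-fold. The part of either difference in the protocadherin values was not tested.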

How the data were processed

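The values used are the deposited MAS5 signal intensities, which the authors made with MAS5 and GCOS per the submitters' processing notes, and they were used as given. Versions are not stated in the labels. The labels' protocols describe RiboAmp amplification of the RNA and biotin labelling. Genes were named from the platform annotation, with symbols updated through the Entrez identifier in RefSeq (GRCm38.p6). At gene level the probe set with the highest mean signal was taken. Log2 ratios are matUPD18 over patUPD18, and counts use 2-fold. Every member was described whatever its signal, and of each list mainly the genes furthest from 0 or with a known role at the clusters, some chosen after their values were seen. The members and lists were chosen with earlier results of these data known. Ratios without the floor and the olfactory receptors were added after seeing the data, since no member was measurable. The alternatives were other scalings, floors, limits, folds and probe set choices, and the procedure was tested on simulated data. In that simulation changes were scored for bright probe sets only, so it does not cover signals as dim as those of the members. The number of arrays, 1 per group, limits the precision. Software was Python 3.11.15 with numpy 2.4.6, pandas 2.3.3, statsmodels 0.14.6, scipy 1.17.1 and matplotlib 3.10.9.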

Additional observations from a re-analysis of the deposited data

How the results depend on the processing

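With the measurable limit at the 60th percentile, 0 member probe sets passed under each of the 4 other scalings. The same was found at the 75th percentile and without probe sets that may match several transcripts. Of these alternatives only loess scaling could have changed the count. The other scalings keep the ranks that set the limit, and a higher limit or fewer probe sets cannot add members. At the 50th percentile 1 passed, Pcdhb2. No measurable member was past the fold threshold in either direction under any alternative with a floor or a limit. This was fixed in advance where no member was measurable. With the floor in place, no member signal was high enough to reach 2-fold. Without floor and limit, 4 were at least 2-fold higher in matUPD18 and 3 in patUPD18, and with a pseudocount of 50 in place of the floor these were 0 and 0. That pseudocount is above the median member signal of each array (39.7 and 31.8), so it draws ratios this dim strongly toward 0. The share of all probe sets under the limit past 2-fold with it was not computed. Scaling to the hybridisation controls moved the median log2 ratio without floor from 0.12 to 0.69 for the 35 probe sets, to 0.52 for Pcdha and to 0.71 for Pcdhb. It moved the matUPD18 count to 10 and the patUPD18 count to 2. The 10 were 28.6% of the members, against 30% of all probe sets under the limit with that scaling. Median centring, quantile and loess scaling left the 35-probe-set median between 0.08 and 0.13. The median over measurable members has no value, because none was measurable. No paired analysis was possible because each group has 1 array. Signals this close to background limit what can be read.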
